A study of Mus musculus with 9 samples.

Results

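The 10 genes described here are 4 genes of the Ccn family (Cyr61, Ctgf, Wisp1 and Wisp2) and 6 genes of the Yap and Taz system (Ankrd1, Amotl2, Lats2, Yap1, Wwtr1 and Tead1), out of 54532 genes in the deposited table. They were found by name, and the set was chosen by measured values: Cyr61 and Wisp1 had lower counts in Ndufa4l2 knockout cells than in empty-vector cells. The differences between knockout and empty vector are therefore given as a description with no test for any of the 10 genes. Cyr61 and Wisp1 have no test in any comparison, since each comparison uses libraries on which they were chosen.

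The libraries come from RENCA, a mouse renal carcinoma cell line, in 3 forms with 3 libraries each. Rescue cells, with the genotype label NDUFA4L2 +/+, are described as the knockout line with NDUFA4L2 put back by a lentiviral vector that carries puromycin resistance, followed by puromycin selection. Knockout cells, labelled NDUFA4L2 -/-, were grown from single-cell colonies after Cas9 cutting with a single guide, and how many colonies make up the sequenced line is not given. Empty-vector cells, labelled WT, are the reference for both. All were grown in the same supplemented RPMI medium, per the labels' protocols.

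The Ccn genes encode secreted, cysteine-rich matricellular proteins that bind integrins and heparan sulphate and act on adhesion, migration and matrix formation. In the Hippo pathway, the kinases Lats1 and Lats2 phosphorylate Yap (Yap1) and Taz (the product of Wwtr1) and keep them out of the nucleus. When this restraint is lifted, Yap and Taz bind Tead transcription factors and raise the mRNA of Cyr61, Ctgf, Ankrd1, Amotl2 and Lats2. Amotl2 and Lats2 encode inhibitors of Yap and so close a negative feedback loop.

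RefSeq promoter windows on GRCm38.p6, each from 250 bases before to 50 bases after the annotated start, were at hand for 6 of the 10 genes: Cyr61 (listed as Ccn1), Ankrd1, Amotl2, Lats2, Yap1 and Wwtr1. Both strands were searched for the Tead motif GGAATG, whose reverse complement is CATTCC, the TCF/LEF motif CTTTGAT, the AP-1 motif TGANTCA and the CArG box bound by Srf. The Tead motif was present in at least 1 window of all 6 genes, and in 14.7% of the 32851 windows of the table. The 4 windows of the known Yap targets are printed because these genes are the pathway's usual readout: Cyr61, Ankrd1 and Amotl2 were lower in knockout than in empty vector, and Lats2 was higher. Capitals mark the motif matches, which are the Tead motif in every window and, in Amotl2, also the TCF/LEF motif.
Cyr61, chr3:145649936-145650235, minus strand: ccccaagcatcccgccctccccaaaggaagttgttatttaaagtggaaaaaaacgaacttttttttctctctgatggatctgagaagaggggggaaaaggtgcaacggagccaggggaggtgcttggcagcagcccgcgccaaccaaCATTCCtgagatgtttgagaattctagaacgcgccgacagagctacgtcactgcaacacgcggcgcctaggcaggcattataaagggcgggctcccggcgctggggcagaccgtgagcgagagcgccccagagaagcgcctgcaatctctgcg
Ankrd1, chr19:36119795-36120094, minus strand: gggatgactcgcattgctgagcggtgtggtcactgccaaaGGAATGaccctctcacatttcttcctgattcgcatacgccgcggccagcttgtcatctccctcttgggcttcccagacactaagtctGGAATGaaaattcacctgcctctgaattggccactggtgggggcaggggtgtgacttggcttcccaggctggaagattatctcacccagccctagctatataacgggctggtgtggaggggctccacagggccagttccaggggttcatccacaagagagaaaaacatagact
Amotl2, chr9:102717554-102717853, plus strand: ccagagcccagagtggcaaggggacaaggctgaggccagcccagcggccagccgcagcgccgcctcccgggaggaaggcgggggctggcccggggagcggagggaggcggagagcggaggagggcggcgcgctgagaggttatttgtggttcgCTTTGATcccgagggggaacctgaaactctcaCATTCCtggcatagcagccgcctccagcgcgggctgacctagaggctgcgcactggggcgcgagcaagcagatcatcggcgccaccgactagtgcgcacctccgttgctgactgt
Lats2, chr14:57746074-57746373, minus strand: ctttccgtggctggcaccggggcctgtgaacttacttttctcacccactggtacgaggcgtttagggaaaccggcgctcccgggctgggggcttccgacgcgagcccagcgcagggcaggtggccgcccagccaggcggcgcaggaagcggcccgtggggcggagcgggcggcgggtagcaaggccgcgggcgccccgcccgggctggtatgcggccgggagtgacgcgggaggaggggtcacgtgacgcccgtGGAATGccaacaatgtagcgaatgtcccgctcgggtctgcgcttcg
Counted from the start, with the base before it as -1, the Tead motif began at -103 in Cyr61, at -210 and -123 in Ankrd1, at -65 in Amotl2, and at 5, after the start, in Lats2. A further Lats2 window held none of the 4 motifs. In Yap1 the Tead motif began at -141. Wwtr1 has 2 overlapping windows on the minus strand, both with the Tead motif and the TCF/LEF motif. The TCF/LEF motif lay in 3.73% of all windows, the AP-1 motif in 7.81% and the CArG box in 1.63%. AP-1 and CArG letters were in none of the member windows searched. These matches are letters in a window, not measured binding.

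Total counts were 13106531 to 26643877 per library, and all 10 genes had enough counts to be tested. The fewest counts of any of them in a library were 266, for Lats2 in an empty-vector library, and the most were 27426, for Cyr61 in rescue. Levels are given as CPM, counts scaled by library size with TMM factors. Ndufa4l2 itself had 73, 48 and 35 counts in rescue, 7, 8 and 6 in knockout and 12, 6 and 16 in empty vector, so rescue lay above the other lines, while knockout and empty vector overlapped. The gene shares its locus with Shmt2 on the opposite strand, which had 130350 counts over the 9 libraries against 211 for Ndufa4l2. Whether counting used strand is not stated. With only 0.386 to 0.642 CPM in empty vector, these counts do not settle whether Ndufa4l2 RNA was lost in knockout. The labels do not tell whether a group's libraries are separate cultures, so any p-value covers the spread between libraries, which may be technical. In bulk RNA, fewer cells expressing a gene and less of its RNA per cell cannot be told apart.

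Cyr61 (chr3:145646976-145649981, minus strand, mm10) was the most abundant gene of the set in every library. It stood at 977, 976 and 1111 CPM in rescue, 366, 321 and 325 in knockout and 833, 641 and 736 in empty vector. The 3 ranges do not overlap: knockout lies lowest and rescue highest. Knockout averaged 337 ± 24.6 CPM against 737 ± 96.0 in empty vector (SD, n = 3 each), a log2 difference of -1.13 ± 0.09 (SE). Rescue averaged 1020 ± 77.7 CPM, which is 1.60 ± 0.09 log2 units above knockout and 0.47 ± 0.09 above empty vector. The level in rescue was thus 139% of that in empty vector, while that in knockout was 45.8% of it.

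Ctgf (chr10:24595442-24598683, plus strand), whose product drives matrix production in fibrosis, had the same order of groups at a lower level. It had 135.4, 123.5 and 123.1 CPM in rescue, 81.2, 66.8 and 74.7 in knockout and 121, 93.7 and 109 in empty vector. Knockout lay below all other libraries, with a log2 difference to empty vector of -0.54 ± 0.09 (SE). Ctgf rose in rescue cells relative to knockout, with a log2 change of 0.78 ± 0.09 (edgeR adjusted p = 8.9e-07). Against empty vector it rose by 0.24 ± 0.09 (edgeR adjusted p = 0.03), and this call rested on single libraries. Its edgeR adjusted p was 0.13 without empty-vector replicate 2, 0.0654 without empty-vector replicate 3, 0.126 without rescue replicate 1 and 0.0503 without rescue replicate 2.

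Wisp1 (chr15:66891320-66923201, plus strand), a Wnt-induced member of the family, had the largest log2 difference between knockout and empty vector of all 10 genes. It was chosen on that comparison, so nothing is read from this rank. Its values were 120, 128 and 139 CPM in rescue, 40.6, 39.8 and 37.7 in knockout and 238, 204 and 212 in empty vector. The groups are fully separate, and unlike Cyr61 the rescue libraries lie between those of the other lines. Knockout averaged 39.3 ± 1.50 CPM against 218 ± 17.9 in empty vector (SD, n = 3 each), or 18.1% of that level, with a log2 difference of -2.47 ± 0.08 (SE). Rescue averaged 129 ± 9.82 CPM, 1.71 ± 0.08 log2 units above knockout and 0.76 below empty vector (-0.76 ± 0.07), so that its level was 59.2% of that in empty vector.

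Wisp2 (chr2:163820861-163833146, plus strand) encodes the family member that lacks the carboxy-terminal cystine-knot module of the other Ccn proteins, and it ran opposite to its relatives. It had 67.3, 76.6 and 81.3 CPM in rescue, 249, 278 and 270 in knockout and 81.3, 58.1 and 57.7 in empty vector. Knockout stood well above every other library, whereas rescue and empty vector overlapped. Knockout averaged 266 ± 15.1 CPM against 65.7 ± 13.5 in empty vector (SD, n = 3 each), 4.04-fold on the fitted scale (log2 difference 2.01 ± 0.13, SE). Wisp2 fell in rescue against knockout (log2 change -1.83 ± 0.13, SE; edgeR adjusted p = 3.4e-07). The difference between rescue and empty vector did not pass (0.19 ± 0.13; edgeR adjusted p = 0.26), but without empty-vector replicate 1, the highest of its group, it was 0.39 with an edgeR adjusted p of 2.94e-05.

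**Figure D1:**
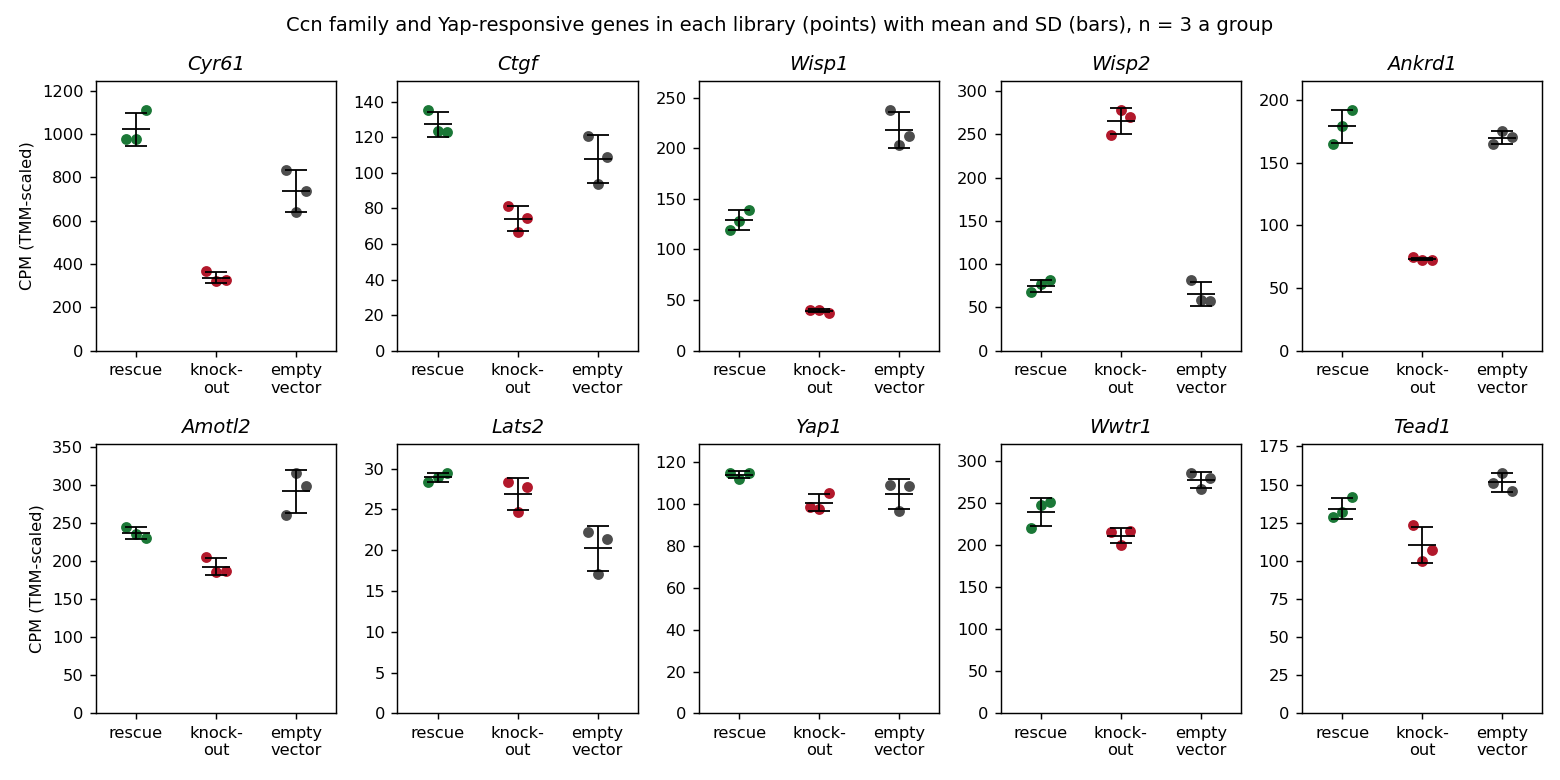
Level of each of the 10 genes in CPM in the 3 libraries of rescue, knockout and empty vector, as points, with the mean and SD as bars. Knockout libraries lie lowest for Cyr61, Ctgf, Wisp1, Ankrd1, Amotl2, Wwtr1 and Tead1 (for Wisp1 at 37.7 to 40.6 CPM). They lie highest for Wisp2 (249.0 to 278 CPM).

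The remaining family genes, Nov and Wisp3, were almost without reads: Nov had 0 counts over the 3 rescue libraries, 0 over knockout and 2 over empty vector, and Wisp3 had 0, 1 and 0. The Ccn output of these cells is therefore that of the other 4 genes, which can be set beside each other per length with the deposited FPKM values. Their summed FPKM was 609 ± 41.3 in rescue, 338 ± 7.72 in knockout and 471 ± 65.7 in empty vector (SD, n = 3 each). Cyr61 made up 82.6% ± 0.672 of that sum in rescue, 49.3% ± 2.57 in knockout and 76.7% ± 0.681 in empty vector. The share of Wisp2 was 6.37% ± 0.403 in rescue, 40.9% ± 3.10 in knockout and 7.15% ± 0.733 in empty vector, so in knockout Wisp2 transcripts came close to those of Cyr61. Ctgf kept a like share, with 7.29% ± 0.768 in rescue, 7.67% ± 0.617 in knockout and 7.92% ± 0.146 in empty vector. Wisp1 gave 3.78% ± 0.123 in rescue, 2.09% ± 0.0589 in knockout and 8.26% ± 0.448 in empty vector. The FPKM ratio of Wisp1 to Wisp2 was 0.595 ± 0.0186 in rescue, 0.0513 ± 0.00435 in knockout and 1.16 ± 0.136 in empty vector, with no overlap between groups.

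**Figure D2:**
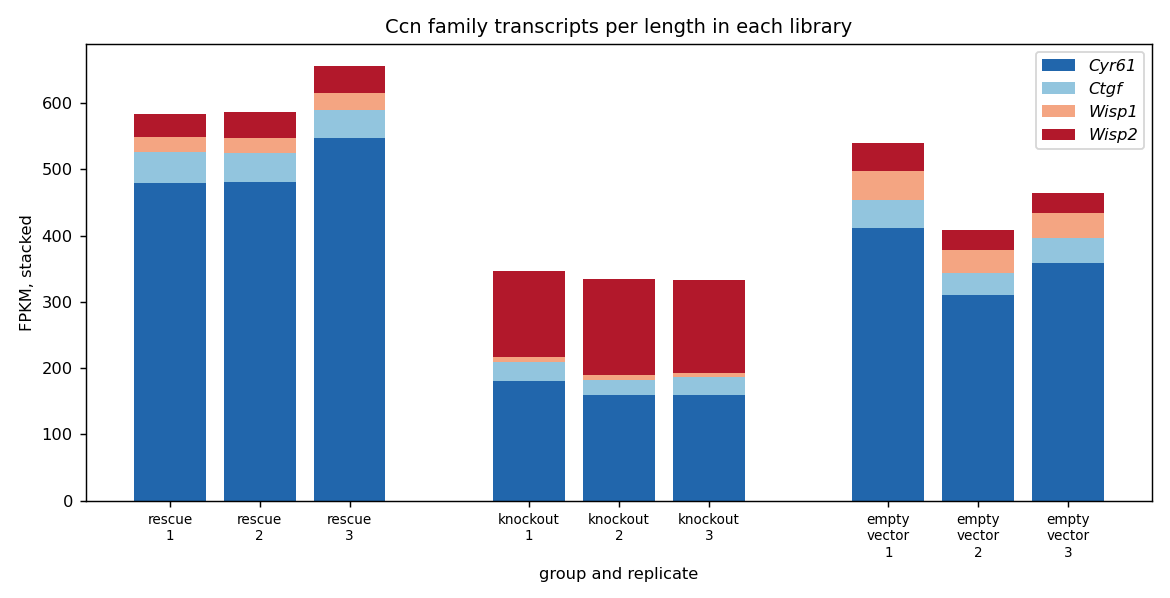
Deposited FPKM of Cyr61, Ctgf, Wisp1 and Wisp2, stacked, in each of the 9 libraries (linear axis from 0). The stack is 583 to 656 FPKM high in rescue, 333 to 347 in knockout and 409 to 540 in empty vector, and Wisp2 takes 37.4% to 43.3% of it in the knockout libraries.

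Ankrd1 (chr19:36111965-36119844, minus strand) encodes a nuclear ankyrin-repeat protein best known from heart muscle and is widely used as a readout of Yap. It stood at 165, 180 and 192 CPM in rescue, 74.5, 72.8 and 72.6 in knockout and 165, 176 and 170 in empty vector. Knockout was far below both other lines, which overlap. The knockout level was 43.1% of that in empty vector, a log2 difference of -1.21 ± 0.06 (SE). Ankrd1 rose in rescue relative to knockout (log2 change 1.29 ± 0.06; edgeR adjusted p = 3.8e-12), and no difference between rescue and empty vector was detectable (0.07 ± 0.06; edgeR adjusted p = 0.36).

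Amotl2 (chr9:102716672-102733418, plus strand) encodes an angiomotin that binds Yap and holds it in the cytoplasm. Its values were 245, 236 and 230 CPM in rescue, 205, 185 and 187 in knockout and 260, 316 and 298 in empty vector. As for Wisp1, the rescue libraries lie between the other groups without overlap. Between knockout and empty vector the log2 difference was -0.60 ± 0.07 (SE). Amotl2 rose in rescue against knockout by 0.30 ± 0.07 (edgeR adjusted p = 0.0014) and fell in rescue against empty vector (-0.30 ± 0.07; edgeR adjusted p = 0.0021).

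Lats2 (chr14:57689662-57758388, minus strand), the Hippo kinase that is itself a Yap target, did not follow the other targets. It had 28.4, 28.9 and 29.5 CPM in rescue, 28.4, 24.6 and 27.7 in knockout and 22.3, 17.1 and 21.4 in empty vector. Empty vector is lowest here, and the highest knockout library stands next to the lowest rescue library. Knockout exceeded empty vector by 0.40 ± 0.09 log2 units (SE). The difference of rescue to knockout did not pass (0.10 ± 0.09; edgeR adjusted p = 0.38), except that with library totals alone as the scale it was 0.28 with an edgeR adjusted p of 0.0096. Lats2 rose in rescue against empty vector by 0.50 ± 0.09 (edgeR adjusted p = 0.00018). Reads of a pseudogene on the opposite strand within Lats2 came to 2.09% of the Lats2 counts, the largest such overlap of any of the 10 genes, and no source used here states whether counting used strand.

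Yap1 (chr9:7931999-8004596, minus strand) had 115, 112 and 115 CPM in rescue, 98.7, 97.8 and 105 in knockout and 109, 96.8 and 109 in empty vector. Knockout and empty vector overlap, with a log2 difference of -0.06 ± 0.06 (SE), and Yap1 is the only member whose libraries overlap in that comparison. It rose in rescue against knockout by 0.18 ± 0.06 (edgeR adjusted p = 0.019). That call was lost without knockout replicate 1 (edgeR adjusted p = 0.0623), without knockout replicate 2 (edgeR adjusted p = 0.0703) and without rescue replicate 3 (edgeR adjusted p = 0.0503). Rescue against empty vector did not pass (0.12 ± 0.06; edgeR adjusted p = 0.12), but it did without empty-vector replicate 1 (0.17; edgeR adjusted p = 0.0222).

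Wwtr1 (chr3:57455649-57575910, minus strand), the gene of Taz, was at 220, 247 and 251 CPM in rescue, 215, 201 and 217 in knockout and 286, 267 and 280 in empty vector. Knockout is lowest and empty vector highest without overlap. The log2 difference of knockout to empty vector was -0.40 ± 0.07 (SE). Wwtr1 rose in rescue against knockout by 0.18 ± 0.07 (edgeR adjusted p = 0.024) and fell against empty vector (-0.21 ± 0.07; edgeR adjusted p = 0.011). The first call was lost without knockout replicate 2, rescue replicate 2 or rescue replicate 3 (edgeR adjusted p = 0.105, 0.0876 and 0.103) and with DESeq2 size factors in edgeR (edgeR adjusted p = 0.0538). The second was lost without rescue replicate 1 (edgeR adjusted p = 0.0785).

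Tead1 (chr7:112679318-112906807, plus strand), a DNA-binding partner of Yap and Taz, had 129, 132 and 142 CPM in rescue, 124, 100 and 107 in knockout and 151, 158 and 146 in empty vector. The groups follow the order of Wwtr1. Knockout against empty vector gave a log2 difference of -0.46 ± 0.07 (SE). Tead1 rose in rescue against knockout by 0.28 ± 0.07 (edgeR adjusted p = 0.0024). The difference of rescue to empty vector missed the threshold (-0.17 ± 0.07; edgeR adjusted p = 0.052), and it passed without knockout replicate 1, knockout replicate 2 or rescue replicate 3 (edgeR adjusted p = 0.0307, 0.0457 and 0.042) and with no filter on low counts (edgeR adjusted p = 0.0446).

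Per length, the order of the members changed with the line. Cyr61 led in all 3, with a mean of 503 ± 38.2 FPKM in rescue, 167 ± 12.6 in knockout and 361 ± 50.6 in empty vector (SD, n = 3 each), and Lats2 was last with 4.12 ± 0.0842 in rescue, 3.86 ± 0.288 in knockout and 2.87 ± 0.415 in empty vector. Ankrd1 was second in rescue (101 ± 7.65 FPKM) and in empty vector (95.3 ± 2.10), but in knockout Wisp2 was second (138 ± 7.61) and Ankrd1 had rank 4 (41.5 ± 0.691). Wwtr1 held the third place throughout, with 49.8 ± 3.54 FPKM in rescue, 44.2 ± 1.85 in knockout and 57.4 ± 2.56 in empty vector. Wisp1 had rank 7 in rescue, rank 9 in knockout and rank 5 in empty vector. Neighbours whose libraries overlapped were Wwtr1 and Ctgf and also Wisp2 and Amotl2 in rescue, and Wwtr1 and Ankrd1 in knockout. In empty vector Amotl2, Wisp1, Ctgf and Wisp2 formed a run of overlapping neighbours, as did Yap1 and Tead1. Taz transcripts outnumbered those of Yap1 per length in every library, with an FPKM ratio of Wwtr1 to Yap1 of 4.07 ± 0.308 in rescue, 4.06 ± 0.142 in knockout and 5.14 ± 0.183 in empty vector. FPKM uses 1 deposited length per gene, 4779 bases for Wwtr1 and 9257 for Yap1. The lengths of the transcripts expressed here were not measured. Without length, Wwtr1 averaged 239 CPM in rescue, 211 in knockout and 278 in empty vector, and Yap1 114, 101 and 105.

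Over the set, 7 of the 10 genes were lower in knockout than in empty vector with no overlap between libraries, 2 (Wisp2 and Lats2) were higher with no overlap, and Yap1 overlapped. Of all 13326 genes tested, 63.7% did not overlap in that comparison, 32.8% lower and 30.8% higher, and edgeR called 60.6%. Nothing is read from the members' count because they were chosen there. Of the 8 genes with a test in rescue against knockout, 6 rose, 1 fell and 1 did not pass, where edgeR at an adjusted p under 0.05 called 56.8% of all genes, 29.5% higher and 27.3% lower. The 6 include Yap1 and Wwtr1, whose calls were lost in some settings. The set was chosen on knockout libraries that this comparison shares, so nothing is read from this count of calls. Without overlap between libraries, 9 of the 10 were higher and 1 lower there, against 65.3% of all genes, 34.6% higher and 30.7% lower. The 9 include Cyr61 and Wisp1, which were chosen on these knockout libraries. They also include Lats2, at 28.35 CPM in its highest knockout library and 28.37 in its lowest rescue library. In FPKM these Lats2 libraries overlapped (4.08 and 4.03). Nothing is read from this count either. In rescue against empty vector 2 of the 8 rose (Ctgf and Lats2), 2 fell (Amotl2 and Wwtr1) and 4 did not pass, where edgeR called 47.5% of all genes, 22.4% higher and 25.1% lower. Here 4 of the 10 were higher and 4 lower without overlap, against 55.1% of all genes, 26.5% higher and 28.6% lower. Cyr61 is among the higher and Wisp1 among the lower, both chosen with the empty-vector libraries. Nothing is read from this count or from the count of calls in this comparison. The 3 comparisons share libraries in pairs, so they are not independent of each other. As a description, and partly fixed by the choice of Cyr61 and Wisp1, the median log2 change of the 10 genes was -0.50 in knockout against empty vector, 0.29 in rescue against knockout and 0.10 in rescue against empty vector, against -0.02, 0.03 and -0.02 over all genes tested. None of the 10 changed direction under any of 16 alternative settings. Scaling by library totals shifted the all-gene median by -0.15 in knockout against empty vector, where 34.4% of calls were then higher (48.7% with TMM factors). In rescue against knockout it shifted by 0.18, with 69.6% of calls higher (51.9% with TMM factors). On that scale Cyr61 differed between knockout and empty vector by -1.28 log2 units and Yap1 by -0.21.

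**Figure D3:**
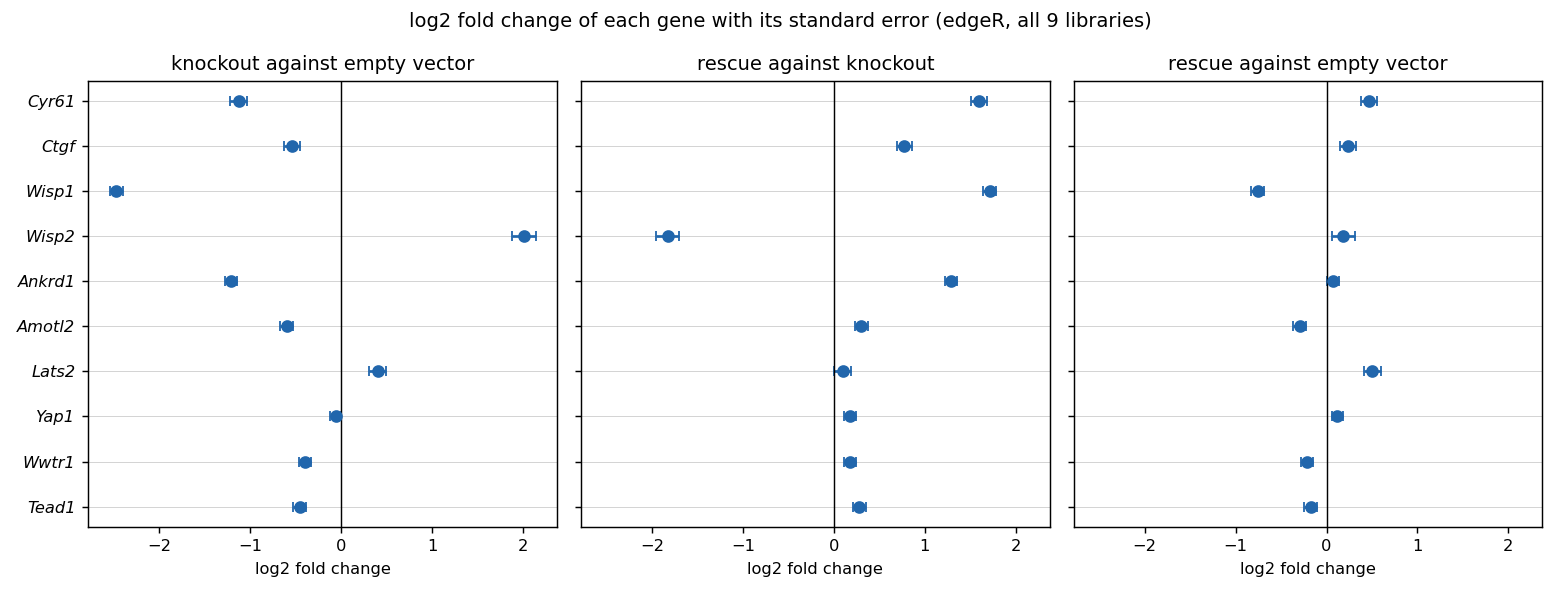
Fitted log2 fold change of each of the 10 genes in the 3 comparisons, with the standard error as bars and a line at 0. Wisp2 lies opposite to the other Ccn genes in knockout against empty vector (2.01) and in rescue against knockout (-1.83), and every change of rescue against empty vector is smaller than 1 log2 unit.

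Among the other genes of the Hippo cascade, most calls in knockout were decreases. Of 30 kinases, scaffolds and junctional regulators 26 were tested; 3 rose and 17 fell in knockout against empty vector (median log2 change -0.29), where 29.5% of all genes rose and 31.1% fell. In rescue against knockout 13 rose and 4 fell (median 0.19), and in rescue against empty vector 5 rose and 8 fell (median -0.09). Over the 3 comparisons 76.9%, 65.4% and 50% of the tested genes were called, against 60.6%, 56.8% and 47.5% of all genes. The count of 4 was 2 without knockout replicate 2, without rescue replicate 1, without rescue replicate 2 or with no filter on low counts. With library totals alone as the scale 18 rose and 2 fell. Map4k3, a kinase that can activate Lats, averaged 69.1 ± 2.64 CPM in rescue, 32.5 ± 2.05 in knockout and 62.3 in empty vector, and its log2 change of 1.09 ± 0.08 in rescue against knockout was a rise (edgeR adjusted p = 9.1e-10). The scaffolds Wwc1 (Kibra) and Wwc2 rose by 0.78 ± 0.06 and 0.80 ± 0.06, while the protocadherin Fat1 fell (-0.68 ± 0.08), over which the edgeR adjusted p ran from 9.8e-10 to 4.5e-07. Rassf1 and the Lats inhibitor Ajuba fell in rescue against empty vector (-1.38 ± 0.13 and -0.37 ± 0.06; edgeR adjusted p = 1.7e-07 and 3.9e-05). Both were already lower in knockout than in empty vector (-1.62 ± 0.14 and -0.36 ± 0.06, edgeR adjusted p = 1.2e-08 and 3.1e-05). With TMM factors neither passed in rescue against knockout (edgeR adjusted p = 0.18 and 0.87).

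Of 7 other Tead genes and Vgll cofactors, 4 were tested. Over all genes, edgeR called 60.6% in knockout against empty vector, 56.8% in rescue against knockout and 47.5% in rescue against empty vector. Of the 4, 2 rose and 2 fell in each of the first 2 comparisons, with 1 increase in rescue against empty vector. These small counts moved with the setting: the 2 that fell in knockout were 1 without empty-vector replicate 2, knockout replicate 1 or knockout replicate 2 and with DESeq2, the 2 that rose were 1 without knockout replicate 3, and without empty-vector replicate 1 there was also 1 decrease in rescue against empty vector. Tead3 averaged 32.3 CPM in rescue, 20.1 in knockout and 24.1 in empty vector, and it rose in rescue relative to knockout (log2 change 0.67 ± 0.09). Tead4 rose by 0.37 ± 0.08. Vgll4, which competes with Yap for Tead, fell in rescue against knockout (-0.66 ± 0.10), as did the sparsely read Tead2 (-1.17 ± 0.30), with edgeR adjusted p-values of these 4 genes from 2.3e-06 to 0.0024.

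A signature of Yap and Taz targets known from human cancers gives 17 genes besides the members, of which 12 were tested; Ptpn14 is counted here and in the Hippo list. In knockout against empty vector 2 rose and 7 fell (median -0.17); in rescue against knockout 4 rose and 2 fell (median 0.07); in rescue against empty vector 1 rose and 6 fell (median -0.19). Of the tested genes 75%, 50% and 58.3% were called in these comparisons, against 60.6%, 56.8% and 47.5% of all genes. Without empty-vector replicate 1 the count of 1 was 2, and with library totals alone as the scale 8 rose and 1 fell in rescue against knockout. F3, tissue factor, averaged 17.7 ± 1.05 CPM in rescue, 4.73 ± 1.43 in knockout (SD, n = 3 each) and was at 18.9 to 21.1 in empty vector. It rose in rescue relative to knockout (log2 change 1.90 ± 0.14, SE; edgeR adjusted p = 1e-09). The kinase gene Nuak2 rose by 0.83 ± 0.07 and the stress gene Gadd45a by 0.82 ± 0.08 (edgeR adjusted p = 6e-09 and 1.7e-07), while Ccdc80, a secreted matrix protein, fell (-0.47 ± 0.07; edgeR adjusted p = 1.7e-05). Not all genes of the list passed: Myof stood at 243 CPM in rescue, 242 in knockout and 247 in empty vector, a gene singled out after its values were seen. Against empty vector, Asap1 rose in rescue by 0.57 ± 0.07 and Dock5 fell (-0.48 ± 0.07; edgeR adjusted p = 9.4e-07 and 1.9e-05). Asap1 was already higher in knockout than in empty vector (0.35 ± 0.07, edgeR adjusted p = 0.00013).

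Srf and its cofactors of the MRTF family also drive Cyr61, Ctgf and Ankrd1 when actin polymerises. Of 19 genes of this list 17 were tested; 4 rose and 7 fell in knockout against empty vector (median -0.09), 7 rose and 6 fell in rescue against knockout (median 0.25), and 4 rose and 5 fell in rescue against empty vector (median -0.07). Of the tested genes 64.7%, 76.5% and 52.9% were called in these comparisons, against 60.6%, 56.8% and 47.5% of all genes. The count of 6 was 3 without rescue replicate 2, and with library totals alone 8 rose and 3 fell. Fhl2, a LIM-domain cofactor, averaged 54.0 ± 3.24 CPM in rescue, 12.9 ± 1.40 in knockout and 67.5 in empty vector, and rose in rescue relative to knockout (log2 change 2.05 ± 0.08; edgeR adjusted p = 1.3e-13). The actin-binding genes Cnn2 and Tpm1 rose by 1.00 ± 0.07 and 0.96 ± 0.07, and Srf itself by 0.83 ± 0.06, with means of 121 ± 6.06 CPM in rescue and 68.4 ± 0.621 in knockout (edgeR adjusted p from 3.3e-10 to 1.5e-09). The 6 that fell there were Flna, Mkl2, Zyx, Vcl, Filip1l and Mkl1, named after their values were seen. The log2 change was -0.74 ± 0.11 for Flna and -0.70 ± 0.07 for Mkl2 (edgeR adjusted p = 6.1e-05 and 1.2e-07). Flna, Mkl2 and Vcl were among the 4 that rose in knockout against empty vector (0.41, 0.86 and 0.50). In rescue against empty vector Mkl1, an MRTF gene, fell (-0.71 ± 0.06; edgeR adjusted p = 1.1e-08), and Actb rose by 0.57 ± 0.09 (edgeR adjusted p = 5.5e-05), where reads of beta-actin can be shared with its pseudogenes. Mkl1 was already lower in knockout than in empty vector (-0.57 ± 0.06, edgeR adjusted p = 6.2e-08).

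Wisp1 and Wisp2 carry the name of Wnt signalling, so 16 Wnt targets and feedback genes were counted, of which 8 were tested. In knockout against empty vector 3 rose and 3 fell, in rescue against knockout 2 rose and 3 fell, and in rescue against empty vector 1 rose and 3 fell. Of the tested genes 75%, 62.5% and 50% were called in these comparisons, against 60.6%, 56.8% and 47.5% of all genes. The count of 3 that rose in knockout was 4 with DESeq2 or its size factors and 5 with no filter on low counts. Cyclin D1 (Ccnd1) averaged 823 CPM in rescue, 322 in knockout and 1130 in empty vector, and Myc 394 in rescue, 250 in knockout and 572 in empty vector, each with rescue between the other lines as for Wisp1. Both are also targets of other pathways. Axin2, the most general Wnt feedback gene, was at 15.5 CPM in rescue, 16 in knockout and 14 in empty vector, with an edgeR adjusted p of 0.062 in knockout against empty vector, near the threshold; it was singled out after its values were seen. The Wnt antagonists Rnf43 and Notum fell in rescue against knockout (-0.54 ± 0.07 and -1.11 ± 0.16; edgeR adjusted p = 2.3e-06 and 8.4e-06), and Znrf3 fell in rescue against empty vector (-0.75 ± 0.08; edgeR adjusted p = 5.6e-07). Znrf3 was already lower in knockout than in empty vector (-0.61 ± 0.08, edgeR adjusted p = 3e-06) and did not pass in rescue against knockout (edgeR adjusted p = 0.17).

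**Figure D4:**
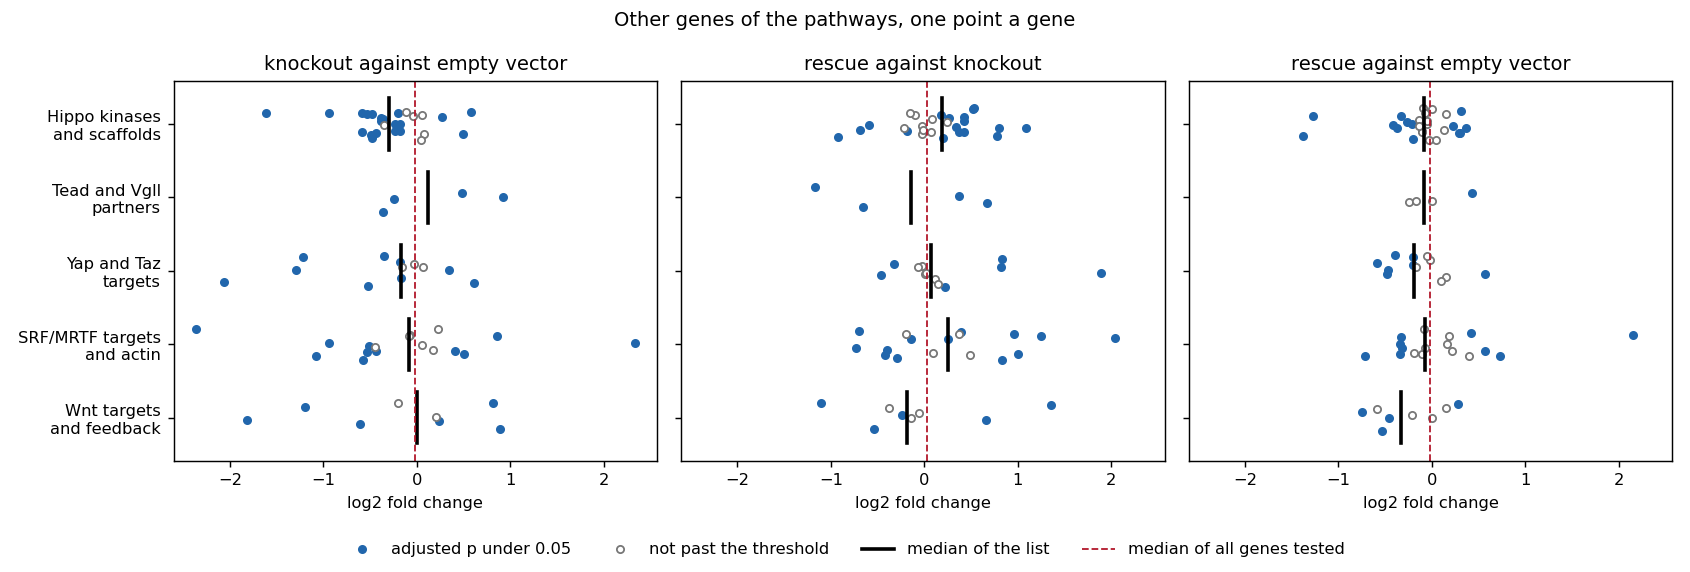
log2 fold changes of the tested genes of 5 pathway lists, without the 10 members, in the 3 comparisons; filled points passed edgeR at an adjusted p under 0.05, bars are list medians and the dashed line is the median of all genes tested. The Hippo list has its median at -0.29 in knockout against empty vector and at 0.19 in rescue against knockout, while the Wnt list has 0.00 and -0.19.

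By Pearson's r of log2 CPM over the 9 libraries, among 9871 protein-coding genes, the genes most like Cyr61 were Ndrg3 (0.998), 3110082I17Rik (0.994), the mitotic checkpoint ATPase gene Trip13 (0.994), the endosomal sorting gene Vps36 (0.994) and the Polycomb gene Suz12 (0.993). Those most like Wisp1 were Fam171a1 (0.998), the MAP kinase phosphatase gene Dusp16 (0.997), Rell1 (0.996), Uhrf1bp1l (0.996) and Tom1l1 (0.994). These likenesses are descriptions with no test: the 9 libraries are 3 groups of 3, many genes share such an order of groups, and ranking by Spearman's rho kept 1 of the 5 genes for each. None of these 10 genes stands in the pathway lists. Within the set, Ctgf was most like Cyr61 (0.970), then Ankrd1 (0.954), while Lats2 (0.032) was not and Wisp2 ran opposite (-0.883). Suz12, as an example of the pattern at a smaller amplitude, averaged 212 CPM in rescue, 131 in knockout and 187 in empty vector.

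Other features of the libraries moved with knockout. Genes of the mitochondrial genome took 2.23% to 2.65% of counts in rescue, 5.79% to 7.93% in knockout and 2.16% to 3.17% in empty vector. With them left out before scaling, Cyr61 differed between knockout and empty vector by -1.13 and Wisp2 by 2.01 log2 units. That setting moved the all-gene median by only 0.001 and bears on the scaling alone. The part of the mitochondrial share in the levels of the 10 genes was not tested. Kidney epithelial markers did not share a direction. The renal transcription factor gene Pax8 averaged 165 ± 13.4 CPM in rescue, 98.6 ± 6.86 in knockout and 237 ± 4.18 in empty vector (SD, n = 3 each), and it fell in knockout against empty vector (log2 change -1.26 ± 0.07, SE; edgeR adjusted p = 1.6e-11), as did the sparsely read Lhx1 (-2.60 ± 0.61; edgeR adjusted p = 0.0011). The cadherin gene Cdh16 averaged 489 ± 50.4 CPM in rescue, 704 ± 54.3 in knockout and 319 ± 69.8 in empty vector, and it rose in knockout against empty vector (log2 change 1.14 ± 0.14; edgeR adjusted p = 4.4e-05). The keratin genes Krt8 and Krt18 (0.84 ± 0.08 and 0.51 ± 0.08; edgeR adjusted p = 3.5e-08 and 3.1e-05) and Pax2 (0.17 ± 0.06; edgeR adjusted p = 0.023) rose there too. Epcam had at most 1 count in a library. Fibroblast and smooth muscle markers, typical of cells rich in Ccn transcripts, were tested for 4 of 10 (Pdgfrb, Col1a1, Acta2 and Des), with a sum of 45.0 to 48.1 CPM in rescue, 98.4 to 108 in knockout and 37.9 to 45.3 in empty vector. Most of this sum was Pdgfrb and Des, which averaged 59.3 and 35.5 CPM in knockout. Lum had no count in any library, and Dcn and Thy1 had at most 1 count in a library. Leukocyte markers summed to 2.39 to 2.78 CPM in rescue, 10.7 to 12.2 in knockout and 1.72 to 2.62 in empty vector, nearly all from Lyz2 and Csf1r, with 4 of the 8 at 0 in all groups. Endothelial markers summed to at most 1.21 CPM in any library, with Kdr and Emcn at 0. The part of these markers in the levels of the 10 genes was not tested.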

How the data were processed

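RNA of 9 RENCA libraries was sequenced after poly(A) selection, per the labels' protocols, which describe both directional and non-directional preparation. HISAT2, HISAT, TopHat2, CASAVA and the build mm10 are listed, per the submitters' processing notes; the counting tool was not given in the sources. The authors deposited raw counts per gene and FPKM values per library, per the file headers, in a single table that also holds the authors' scaled group means (a signal not used here), the authors' deposited log2 fold changes and the authors' p-values, which were not used either. The labels name genomic DNA as the molecule although the protocol is for mRNA, and the design text counts fewer knockout libraries than the 3 labelled; all were used.

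The test on counts was that of edgeR 4.0.16 (R 4.3.3): filterByExpr on the groups (13326 genes kept), TMM factors, a robust quasi-likelihood fit of all 9 libraries with 1 mean per group, and Benjamini-Hochberg adjustment over all genes tested at 0.05. Standard errors are the log2 change over the square root of F. Library totals were 13106531 to 26643877 counts. The test was also run on simulated counts with 200 changed genes and the same spread for every gene. That setting is simpler than these data, so it does not vouch for the calls of small changes. No libraries of a group agreed within sampling noise (chi-square over degrees of freedom 3.64 to 20.1). Group and replicate come from the sample titles. The members and the gene lists were chosen with earlier results of these data known. From each list the text names up to 4 called genes with the smallest adjusted p in rescue against knockout and up to 2 in rescue against empty vector, besides the 5 genes most like Cyr61 and Wisp1 with at least 5 CPM in their highest group. Some further genes are named where the text says that their values were seen first. Alternatives were other scalings, DESeq2 1.42.0, no filter, 2-group fits, a replicate block, mitochondrial genes left out, and each library left out. The summed level of the kidney marker list is not reported here.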

Additional observations from a re-analysis of the deposited data

How the results depend on the processing

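With library totals alone as the scale, 5916 genes rose in rescue against knockout (3928 with TMM factors) and 10 other pathway genes fell (17 with TMM factors); the cause was not tested. The other counts of calls over all genes and over all pathway genes stayed within 1.5 times of the reported ones. Some small changes turned sign. For Ajuba, rescue against knockout gave -0.013 and became 0.172 with library totals, which passed (edgeR adjusted p = 0.0141), and 0.028 with no filter, and it ran from -0.04 to 0.027 as libraries were left out in turn, with 0.027 without knockout replicate 1 and 0.015 without rescue replicate 1. With library totals Mkl1 became 0.044 and Znrf3 0.046, against -0.141 and -0.14. For Mkl1, rescue against knockout was called as reported (edgeR adjusted p = 0.0456) and not with library totals, with no filter, with the replicate block or in 7 of the 9 fits without 1 library. For Tead4, rescue against empty vector gave 0.003, became -0.004 with no filter and ran from -0.061 (without empty-vector replicate 2) to 0.073 as libraries were left out, with -0.021 without rescue replicate 1. Replicate numbers did not pair the libraries: same-numbered libraries correlated in their deviations from the group means at -0.15 to 0.045. With a replicate block edgeR called 7890 genes in knockout against empty vector (8078 without it), 7367 in rescue against knockout (7567) and 6091 in rescue against empty vector (6330), and no call of a member changed. Levels per length as a percentage of Cyr61 must be the same with TPM as with FPKM. Both rest on the same counts and gene lengths, so that alternative is no check of these levels. The Tead motif of Lats2 was lost when only the bases before the start were searched. Depth limits the statements on Nov, Wisp3, Tead2 and Ndufa4l2 most.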
